A study of Mus musculus with 3 samples.

Results

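Inhibitory receptors hold activated T cells in check, and the 10 genes described here encode such receptors, together with molecules that engage or work beside them. The set was chosen by gene symbol: Pdcd1, Lag3, Havcr2, Ctla4, Tigit, Cd160, Btla, Cd200, Entpd1 and Cd274. All 10 were found among the 17796 genes of the deposited table, and all 10 were among the 13750 genes with a mean of at least 1 CPM (reads of a gene per 1000000 assigned reads) over the 3 libraries. Of these, 7 are receptors of T cells. Cd274 and Cd200 encode surface ligands, although both are also made by activated T cells, and Entpd1 encodes an enzyme, so that the name of the set fits these 3 members only loosely.

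T cells from the spleens of C57BL/6 mice were the source of the RNA. They had been kept for 3 days in wells coated with anti-CD3 (2 ug/ml) and anti-CD28 (5 ug/ml), with interleukin 2 at 100 IU/ml, which activates them. The Young library came from mice aged 2 months and labelled as vehicle. The Old library came from mice of 24 months given vehicle, and the Old + Fumarate library from mice of 24 months given 10 mg/kg of the tricarboxylic acid cycle intermediate fumarate. Dosing of the aged mice was 3 times per week and lasted 2 months, after which T cells were isolated. No agent is stated to have been given to the mice of all groups, and all cultures received the same antibodies and interleukin 2. There was 1 library per group, and the labels do not say how many mice gave cells to it, which means that replicate error cannot be measured and that no p-value is given. All intervals are 95% counting intervals and cover counting error alone. The error between mice is not in them and could not be measured.

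Activated T cells put these receptors on their surface within days, and prolonged stimulation keeps them there, which is why they are used as signs of both activation and exhaustion. PD-1, BTLA and TIGIT carry tyrosine motifs in their tails that recruit phosphatases, CTLA-4 takes the shared ligands CD80 and CD86 away from CD28, and CD39 turns extracellular ATP towards adenosine, which acts on T cells through its own receptors. In aged mice the share of T cells with such receptors is known to be larger than in young mice.

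Depth was estimated at 41.0 M reads for Young, 17.3 M for Old and 13.9 M for Old + Fumarate. T cell markers were present in all 3 libraries: the 15 listed genes, among them the CD3 chains and the receptor constant segments, summed to 3676, 3329 and 4289 CPM in Young, Old and Old + Fumarate. The sum and the single genes differed in Old + Fumarate, where 9 of the 15 were lower than in Young. Their median log2 ratio of CPM + 1 was −0.31 in Old over Young and −0.12 in Old + Fumarate over Young. Several lists of markers of other blood cells stood highest in the Old library, and those of dendritic and B cells, given further below, in Old + Fumarate. The 9 basophil and mast cell markers in the table summed to 5.95, 479 and 85.6 CPM, the 13 platelet and erythroid markers to 14.0, 1351 and 175 CPM, the 9 macrophage and monocyte markers to 3.05, 33.9 and 5.77 CPM, and the 6 NK cell markers to 2.29, 67.1 and 46.3 CPM, in the same order. The NK cell list holds Fcer1g, which mast and myeloid cells also make, at 0.756, 14.5 and 7.36 CPM. In bulk RNA such as this, fewer cells of a type and less RNA per cell cannot be told apart.

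The first comparison sets Old against Young and asks how activated T cells of aged mice differ from those of young mice. Havcr2, Entpd1, Tigit and Cd274 were higher in the Old library, by 19.2-fold, 11.8-fold, 2.54-fold and 2.06-fold in CPM. The other 6 members, Pdcd1, Lag3, Ctla4, Cd160, Btla and Cd200, lay within 1.5-fold. On the log2 scale of CPM + 1, which is used for all counts here and makes ratios of low genes smaller, 4 of 10 members were at least 1.5-fold higher, where 16.5% of all genes tested were, and none was at least 1.5-fold lower, where 6.73% were. The same 4 members were past 2-fold upwards, against 10.1% of all genes, and none downwards, against 2.01%. The members' median log2 ratio was 0.22, beside 0.03 over all genes tested.

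**Figure D1:**
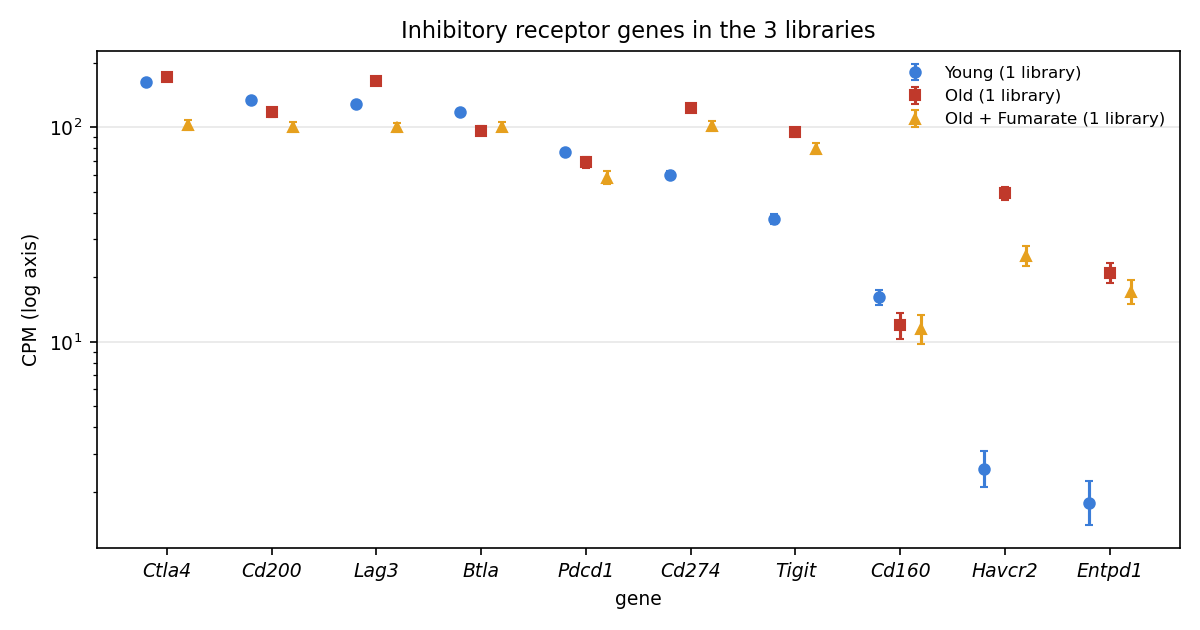
CPM of the 10 genes on a log axis in the Young, Old and Old + Fumarate libraries, 1 library each, with 95% Poisson counting intervals. Havcr2 stood at 2.56 CPM in Young against 49.2 and 25.2 CPM in the libraries of aged mice, whereas Btla stood between 96.4 and 118 CPM in all 3.

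Havcr2 (chromosome 11, 46454935 to 46481255, mm10) encodes TIM-3, a receptor of terminally differentiated effector T cells that is also made by mast cells and myeloid cells. Its level was 2.56 CPM in Young (interval 2.10 to 3.10), 49.2 CPM in Old (46.0 to 52.7) and 25.2 CPM in Old + Fumarate (22.6 to 28.0). The young library was therefore low and the intervals of the 3 libraries did not overlap. The log2 ratio of CPM + 1 was 3.82 for Old over Young, which lay at percentile 98.8 of all genes tested, and the plain ratio of 19.2 had an interval of 15.7 to 23.8. These levels stand beside those of the basophil and mast cell markers, all 9 of which were at least 1.5-fold higher in Old than in Young, and whose part in the Havcr2 difference was not tested. Cpa3, a mast cell carboxypeptidase, was at 0.0976, 64.1 and 14.9 CPM in Young, Old and Old + Fumarate. From Old to Old + Fumarate the sum of these markers went from 479 to 85.6 CPM and Havcr2 from 49.2 to 25.2 CPM.

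Entpd1 (chromosome 19, 40612366 to 40741602) encodes CD39, which is found on regulatory T cells, on T cells under long stimulation, and on myeloid and endothelial cells. It was at 1.78 CPM in Young (1.40 to 2.24), 21.0 CPM in Old (18.9 to 23.2) and 17.1 CPM in Old + Fumarate (15.0 to 19.4). Both libraries of aged mice were thus high. Their 2 intervals overlapped, although the interval of the ratio of Old + Fumarate over Old, 0.690 to 0.964, did not hold 1. The log2 ratio for Old over Young was 2.98, and the plain ratio of 11.8 had an interval of 9.13 to 15.4. Beside it, the endothelial receptor gene Kdr was at 0.0244, 3.82 and 0.650 CPM, and the 4 endothelial and stromal markers in the table summed to 26.7, 57.0 and 14.1 CPM, most of it from Pecam1, which leukocytes also make. Of the 5 macrophage and monocyte markers with a mean of at least 1 CPM, all 5 were at least 1.5-fold higher in Old over Young (median log2 ratio 2.24) and 3 in Old + Fumarate over Young (median 0.59). Higher by that much were 16.5% and 10.5% of all genes tested. Among the 5 markers the receptor gene Csf1r was at 3.74 CPM in Old and listed at 0 in Young and Old + Fumarate. The part of these cells, and of basophils and mast cells, in the level of Entpd1 was not tested.

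Tigit (chromosome 16, 43648867 to 43664146) encodes a receptor that competes with the activating receptor CD226 for the ligands CD155 and CD112. Its level was 37.4 CPM in Young (35.6 to 39.3), 94.9 CPM in Old (90.3 to 99.6) and 79.4 CPM in Old + Fumarate (74.8 to 84.2). Young was the low library and none of the intervals overlapped. The log2 ratio for Old over Young was 1.32, and the plain ratio of 2.54 had an interval of 2.36 to 2.72. NK cells also make TIGIT, and the NK cell markers are given above.

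Cd274 (chromosome 19, 29367455 to 29388095) encodes PD-L1, the ligand of PD-1, which interferons induce in many cell types. It was at 59.9 CPM in Young (57.6 to 62.3), 123 CPM in Old (118 to 129) and 102 CPM in Old + Fumarate (96.3 to 107). The order of the libraries was the same as for Tigit and Entpd1, with Young low. The log2 ratio for Old over Young was 1.03, and the plain ratio of 2.06 had an interval of 1.94 to 2.19. Dendritic cells make much PD-L1, and the 5 dendritic cell markers in the table summed to 49.6, 95.6 and 148 CPM, most of it from Batf3, which T cells also make, so that this sum was highest in Old + Fumarate and Cd274 in Old. Their part in the level of Cd274 was not tested.

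The promoters of these 4 genes, and of Ctla4, which is described further below, are shown because the 4 stood higher together in the aged libraries while Ctla4 did not. Each is the 250 bases before the RefSeq start on GRCm38.p6, 5′ to 3′ on the gene's own strand, with letters in capitals where a motif was found. Of the 10 members, 9 have a promoter in the RefSeq table used, and Lag3 is named only. Entpd1 has 2 starts, and the counts do not say which was used. The window of Ctla4 lies inside the position of the gene in the deposited table, 60887000 to 60915832. The bases before that upstream end are not shown.
Havcr2, chr11:46454681-46454930, plus strand: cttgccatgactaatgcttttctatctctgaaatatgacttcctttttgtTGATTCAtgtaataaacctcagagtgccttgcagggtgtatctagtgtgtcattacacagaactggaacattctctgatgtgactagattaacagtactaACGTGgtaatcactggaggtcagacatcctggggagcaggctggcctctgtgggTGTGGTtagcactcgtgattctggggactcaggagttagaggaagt
Tigit, chr16:43664185-43664434, minus strand: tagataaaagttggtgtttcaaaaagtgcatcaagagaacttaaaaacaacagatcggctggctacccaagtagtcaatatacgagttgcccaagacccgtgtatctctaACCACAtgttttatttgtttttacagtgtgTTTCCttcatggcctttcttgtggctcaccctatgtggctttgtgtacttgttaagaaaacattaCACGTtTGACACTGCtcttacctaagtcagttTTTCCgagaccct
Cd274, chr19:29367188-29367437, plus strand: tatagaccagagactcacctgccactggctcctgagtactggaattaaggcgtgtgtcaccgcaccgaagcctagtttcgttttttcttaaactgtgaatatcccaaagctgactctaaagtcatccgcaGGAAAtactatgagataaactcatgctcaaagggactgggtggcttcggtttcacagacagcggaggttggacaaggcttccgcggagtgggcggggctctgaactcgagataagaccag
Entpd1 upstream start, chr19:40612116-40612365, plus strand: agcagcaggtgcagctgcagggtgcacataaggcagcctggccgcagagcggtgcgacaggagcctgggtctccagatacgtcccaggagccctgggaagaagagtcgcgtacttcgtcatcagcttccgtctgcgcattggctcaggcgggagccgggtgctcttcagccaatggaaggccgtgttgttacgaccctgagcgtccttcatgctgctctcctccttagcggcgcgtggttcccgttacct
Entpd1 downstream start, chr19:40659520-40659769, plus strand: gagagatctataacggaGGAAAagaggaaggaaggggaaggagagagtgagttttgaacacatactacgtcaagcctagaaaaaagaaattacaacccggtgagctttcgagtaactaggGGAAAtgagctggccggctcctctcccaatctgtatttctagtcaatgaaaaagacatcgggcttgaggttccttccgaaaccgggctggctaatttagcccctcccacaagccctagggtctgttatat
Ctla4, chr1:60908775-60909024, plus strand: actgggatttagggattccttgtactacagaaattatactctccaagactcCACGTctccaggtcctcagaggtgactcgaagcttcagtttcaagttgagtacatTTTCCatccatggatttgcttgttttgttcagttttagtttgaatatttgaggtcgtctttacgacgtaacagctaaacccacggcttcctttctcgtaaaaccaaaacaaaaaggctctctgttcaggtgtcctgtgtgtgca

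The motifs searched, on both strands, were the NFAT core GGAAA, the AP-1 site TGANTCA, the cyclic AMP element TGACGTCA, the gamma-activated site TTCNNNGAA, the interferon-stimulated element (a pair of GAAA with 2 bases between), the antioxidant response core TGACNNNGC, the hypoxia response core ACGTG, the RUNX site TGTGGT and the TATA box TATAAA. None of these overlapped another in the 6 windows shown. Havcr2 held the AP-1 letters TGATTCA at 200 bases before the start, and 6.75% of all 32851 windows of this length hold such a match. It also held the hypoxia core at 100 bases and the RUNX letters at 46 bases, which 16.6% and 14.0% of all windows hold. Tigit held the antioxidant core as TGACACTGC at 39 bases before the start, a match found in 10.2% of all windows, next to a hypoxia core at 45 bases. It also held the RUNX letters at 140 bases. Ctla4 held a hypoxia core too, at 199 bases. The NFAT core, found in 55.6% of all windows, was present in Tigit, Cd274, Ctla4 and the downstream window of Entpd1. No motif was common to the 4 genes. These matches describe letters and not binding.

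Of the 6 members within 1.5-fold in Old over Young, Ctla4 (chromosome 1, 60887000 to 60915832) encodes the rival of CD28 for CD80 and CD86. It was at 162 CPM in Young, 172 CPM in Old and 103 CPM in Old + Fumarate, so that Young and Old lay close (ratio 1.06, interval 1.02 to 1.11) and Old + Fumarate was low. Its log2 ratio for Old over Young was 0.09 and turned to −0.01 with upper-quartile scaling. Lag3 (chromosome 6, 124904361 to 124911705) encodes a CD4-like receptor for MHC class II. It was at 129 CPM in Young, 164 CPM in Old and 99.8 CPM in Old + Fumarate, with a log2 ratio of 0.35 for Old over Young that came to 0.65, past 1.5-fold, with scaling to the T cell markers. For both genes the Old library was the highest and Old + Fumarate the lowest.

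Pdcd1 (chromosome 1, 94038305 to 94052553) encodes PD-1. Its level was 76.7 CPM in Young (74.1 to 79.5), 68.7 CPM in Old (64.8 to 72.7) and 58.3 CPM in Old + Fumarate (54.4 to 62.5). The intervals did not overlap, yet all 3 libraries lay within 1.5-fold of each other, and Young was the highest. Cd200 (chromosome 16, 45382135 to 45409053), whose product engages the inhibitory receptor CD200R, had the same order at 134, 117 and 100.1 CPM. Btla (chromosome 16, 45224315 to 45257670), a receptor for the TNF receptor family member HVEM, was at 118, 96.4 and 101 CPM. Cd160 (chromosome 3, 96798763 to 96829351), another receptor for HVEM, was at 16.1, 11.9 and 11.5 CPM. For these 4 genes Young was the highest library, with log2 ratios for Old over Young of −0.16, −0.19, −0.29 and −0.41. With the T cell markers as the scale, the ratios of Pdcd1, Cd200 and Btla turned to 0.15, 0.12 and 0.01, so their direction depends on the scaling. Tigit, Btla and Cd200 are all on chromosome 16, the latter pair as near neighbours, and did not move alike.

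Beside the levels of Btla and Cd200, which B cells also make, the 11 B cell markers summed to 7.81, 18.8 and 20.5 CPM in Young, Old and Old + Fumarate, with none listed at 0. Cd160 is made by NK cells and killer T cells, and the 6 NK cell markers summed to 2.29, 67.1 and 46.3 CPM. That list holds Fcer1g and so is not particular to NK cells. The part of B and NK cells in the levels of Btla, Cd200 and Cd160 was not tested.

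The second comparison sets Old + Fumarate against Old, and asks how T cells of aged mice given fumarate differ from those of aged mice given vehicle. Havcr2, Ctla4 and Lag3 were lower in the Old + Fumarate library, at 0.512, 0.596 and 0.609 times the Old level. Of the 10 members, 9 had ratios below 0 on the log2 scale, as had 7453 of all 13750 genes tested. Only the 3 members just named were past 1.5-fold, and no member was higher by that much. The ratio of Cd160 turned to 0.01 with upper-quartile scaling, and that of Btla to −0.12 with scaling to the T cell markers. At least 1.5-fold lower were 3 of 10 members, where 11.2% of all genes tested were, and at least 1.5-fold higher were 0 of 10, where 2.15% of all genes were. The median of the members was −0.27, beside −0.02 over all genes tested. No member was past 2-fold, where 0.291% of all genes tested were higher and 6.57% lower by that much.

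**Figure D2:**
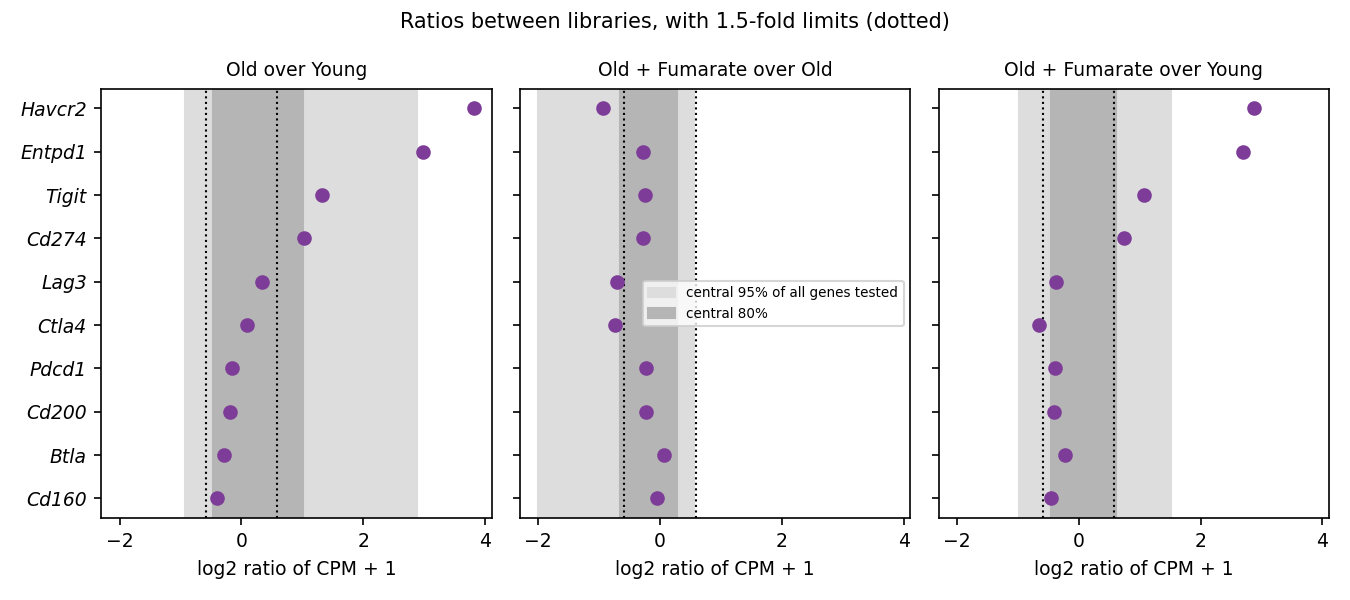
Log2 ratios of CPM + 1 of the 10 genes for the 3 comparisons, with dotted lines at 1.5-fold and grey bands for the central 80% and 95% of all 13750 genes tested. Havcr2 and Entpd1 lay outside the 95% band in both comparisons with Young, at 3.82 and 2.98 and at 2.88 and 2.70, and none of the 10 genes lay outside it for Old + Fumarate over Old.

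For Havcr2 the log2 ratio of Old + Fumarate over Old was −0.94, and the plain ratio of 0.512 had an interval of 0.450 to 0.580. Ctla4 had a log2 ratio of −0.74 and a plain ratio with an interval of 0.559 to 0.635, and Lag3 had −0.71 and 0.570 to 0.649. Ctla4 and Lag3 were also close in level per kb in both libraries, with overlapping intervals. With scaling to the T cell markers the ratios were −1.12, −0.93 and −0.90, and under each scaling and constant run they stayed past 1.5-fold. Entpd1, Cd274, Tigit, Pdcd1 and Cd200 had log2 ratios of −0.28, −0.28, −0.25, −0.23 and −0.23. The ratio of Cd160, −0.05, had a counting interval for the plain ratio of 0.777 to 1.19, and that of Btla, 0.06, one of 0.973 to 1.12, so no difference was detectable at this depth for these 2 genes.

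Markers of regulatory T cells, which make CTLA-4 and TIGIT at rest, are given beside these values. Foxp3, their defining factor, was at 1.04 CPM in Young, 4.11 CPM in Old and 1.54 CPM in Old + Fumarate, and Ikzf2, a factor of the same cells, was at 11.3, 22.0 and 16.5 CPM. Both were highest in Old, as were the members Ctla4, Tigit, Lag3, Entpd1, Havcr2 and Cd274. Several lists of markers of other blood cells, given above, were highest in Old too. Il2ra, which all activated T cells also make, was at 1047, 1532 and 2086 CPM and took most of the summed level of the 8 markers, which was 1132, 1639 and 2185 CPM. Past 1.5-fold, 3 of the 8 markers were higher and 0 lower in Old over Young, and 1 was higher and 3 lower in Old + Fumarate over Old. By this limit, 16.5% of all genes tested were higher and 6.73% lower in Old over Young. In Old + Fumarate over Old, 2.15% were higher and 11.2% lower. The part of these 8 markers in the levels of the receptor genes was not tested. Markers of CD4 and CD8 T cells differed between the libraries as well. Of the 4 CD4 T cell markers, all 4 had ratios below 0 in Old over Young (median −1.31) and in Old + Fumarate over Young (median −1.25), 2 of them past 2-fold in each. Lower by that much were 2.01% and 2.35% of all genes tested. Cd4 itself differed least, at 238, 180 and 181 CPM in Young, Old and Old + Fumarate, whereas Cd40lg, which encodes the ligand of CD40, was at 50.5 CPM in Young and 10.7 CPM in Old, and Trat1, an adaptor of the T cell receptor, at 12.4 and 0.348 CPM. Of the 4 CD8 T cell markers, 3 had ratios above 0 in Old over Young (median 0.21) and in Old + Fumarate over Young (median 0.48), and Cd8a, at 229, 187 and 218 CPM, was the exception in both. The summed level was 359, 232 and 231 CPM for the CD4 list and 369, 345 and 399 CPM for the CD8 list. The part of these markers in the levels of the receptor genes was not tested.

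The third comparison sets Old + Fumarate against Young. It shares a library with each of the other 2 comparisons, so it is no independent evidence for them. Those 2 comparisons likewise share the Old library and are not independent of each other. Havcr2, Entpd1, Tigit and Cd274 were 9.83-fold (7.88 to 12.4), 9.60-fold (7.36 to 12.7), 2.12-fold (1.96 to 2.29) and 1.70-fold (1.59 to 1.81) the Young level. Markers of other cells were higher in Old + Fumarate than in Young too: 8 of 9 basophil and mast cell markers were past 2-fold, as were 8 of 12 platelet and erythroid, 3 of 5 NK cell and 3 of 5 dendritic cell markers with a mean of at least 1 CPM. The summed levels in Young and Old + Fumarate were 5.95 and 85.6 CPM for basophils and mast cells, 14.0 and 175 CPM for platelets and erythroid cells, 2.29 and 46.3 CPM for NK cells and 49.6 and 148 CPM for dendritic cells. Their part in these 4 ratios was not tested. Ctla4 was at 0.633 times the Young level (0.597 to 0.670). Past 1.5-fold, 4 of 10 members were higher, where 10.5% of all genes tested were, and 1 of 10 was lower, where 6.79% of all genes were. With scaling to the T cell markers Ctla4 came to a log2 ratio of −0.54, inside the limit, and with a limit of 2-fold Havcr2, Entpd1 and Tigit were higher, where 5.01% of all genes were, and none lower, where 2.35% were. The median of the members was −0.30, beside 0.00479 over all genes. Ratios below 0 were found for 6 of 10 members and for 6765 of all 13750 genes tested. Pdcd1 (−0.39), Lag3 (−0.37), Cd160 (−0.46), Btla (−0.23) and Cd200 (−0.41) were within 1.5-fold.

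Summed over the 10 members, the level was 738 CPM in Young, 919 CPM in Old and 696 CPM in Old + Fumarate. The sum in Old + Fumarate was thus below that in Young, although 4 members were well above it. Havcr2 and Entpd1 together made up 0.589% of this sum in Young, 7.64% in Old and 6.07% in Old + Fumarate.

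Levels of different genes were compared only per kb of annotated exon. In Young the order from the highest was Ctla4 (69.6 CPM per kb), Lag3 (61.1), Tigit (40.7), Cd200 (40.2), Pdcd1 (39.8), Btla (34.9), Cd274 (16.5), Cd160 (6.10), Havcr2 (0.941) and Entpd1 (0.319), and only Tigit, Cd200 and Pdcd1 did not differ from their neighbour beyond counting error. In Old, Tigit came first at 103 CPM per kb, followed by Lag3 at 77.8 and Ctla4 at 73.9, and the intervals of these last 2 overlapped. Pdcd1, Cd200 and Cd274 followed at 35.6, 35.3 and 34.1 CPM per kb, each overlapping its neighbour, then Btla (28.4), Havcr2 (18.1), Cd160 (4.52) and Entpd1 (3.76), of which the last 2 overlapped. In Old + Fumarate, Tigit was again first at 86.4 CPM per kb, with Lag3 at 47.3 and Ctla4 at 44.0, whose intervals overlapped. Pdcd1, Cd200, Btla and Cd274 stood together between 28.0 and 30.2 CPM per kb, with overlapping intervals, above Havcr2 (9.26), Cd160 (4.34) and Entpd1 (3.07). The place of Tigit rests on an annotated exon length of 0.919 kb, the shortest of the 10, against 5.58 kb for Entpd1. The span from the highest to the lowest member was 218-fold in Young, 27.5-fold in Old and 28.2-fold in Old + Fumarate.

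**Figure D3:**
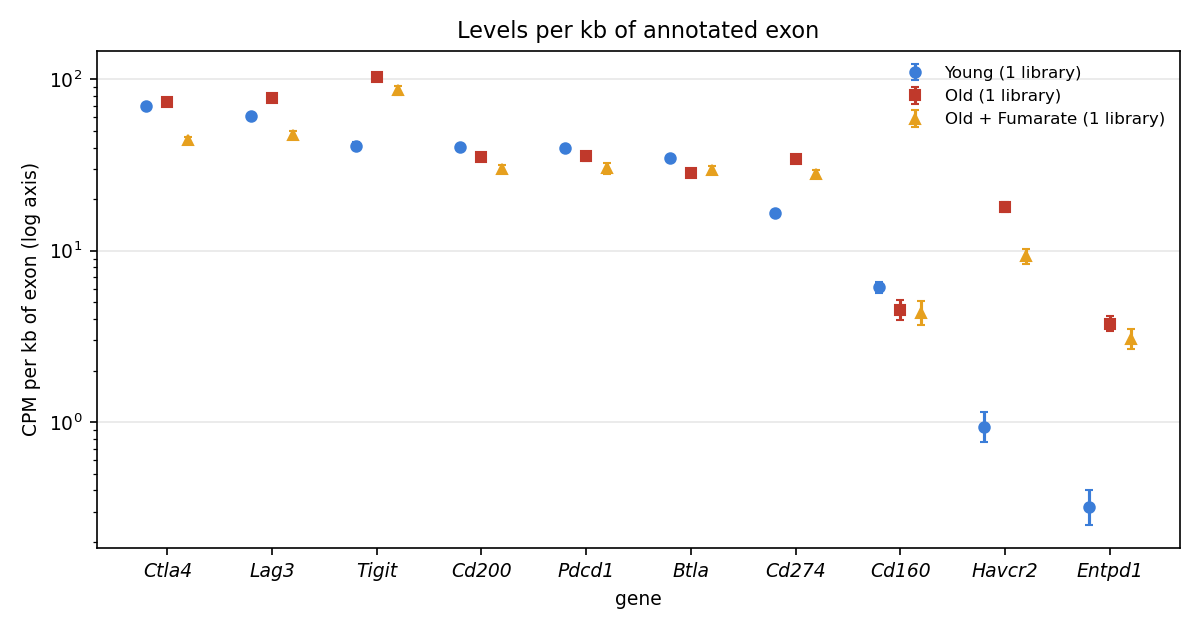
CPM per kb of annotated exon of the 10 genes on a log axis, with 95% counting intervals, for 1 library per group. Tigit stood at 40.7 CPM per kb in Young and was the highest gene in Old (103) and Old + Fumarate (86.4), while Entpd1 was the lowest in all 3.

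The ligands and partners of these receptors went both ways. Of the 12 listed genes in the table, 5 were at least 1.5-fold higher and 2 lower in Old over Young (median log2 ratio 0.41), and none higher and 3 lower in Old + Fumarate over Old (median −0.40). Over all genes tested, 16.5% were higher and 6.73% lower in Old over Young, and 2.15% and 11.2% in Old + Fumarate over Old. Cd80, a ligand of both CTLA-4 and CD28, was at 66.3, 36.0 and 45.6 CPM in Young, Old and Old + Fumarate, and Cd86, the other such ligand, at 3.85, 4.81 and 2.96 CPM. Pvr, which encodes the TIGIT ligand CD155, was at 56.2, 24.7 and 35.4 CPM, and Nectin2, the ligand CD112, at 1.76, 1.16 and 0.577 CPM. Thus the receptor Tigit was higher in Old than in Young, and its ligand Pvr was lower. Lgals9, a galectin that binds TIM-3, was at 95.8, 181 and 55.4 CPM, highest in Old as Havcr2 was. Ceacam1, another partner of TIM-3, was at 0.415, 4.04 and 1.06 CPM, from only 17, 70 and 15 estimated reads. Pdcd1lg2, the second PD-1 ligand, was at 13.4, 20.2 and 13.7 CPM. Tnfrsf14, which encodes HVEM, was at 5.81, 5.27 and 4.55 CPM, and Cd200r1, the receptor of CD200, at 0.610, 10.1 and 3.83 CPM. The level of Cd200r1 in Young rests on 25 estimated reads. Marker lists of several other blood cells, given above, were highest in Old as well. The part of those cells in the levels of the ligands and partners was not tested.

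Within a library, the ratio of a receptor to its partner does not depend on how libraries are scaled. Tigit stood at 2.54 times Cd226, its activating rival, per kb in Young (2.39 to 2.70), 11.4 times in Old (10.5 to 12.4) and 10.7 times in Old + Fumarate (9.67 to 11.9). Both aged libraries were therefore high, and they did not differ beyond counting error. Cd226 itself was at 78.5, 44.3 and 39.4 CPM. Pdcd1 stood at 2.40 times its ligand gene Cd274 per kb in Young (2.28 to 2.53), 1.04 times in Old (0.972 to 1.12) and 1.08 times in Old + Fumarate (0.987 to 1.18), again with Young apart. Ctla4 stood at 2.39 times Cd28 in Young (2.31 to 2.47), 2.97 times in Old (2.82 to 3.14) and 2.15 times in Old + Fumarate (2.00 to 2.31), so that Old was the highest. Entpd1 stood at 0.915 times Nt5e, the enzyme of the following step, in Young (0.675 to 1.23), 2.09 times in Old (1.78 to 2.46) and 3.18 times in Old + Fumarate (2.53 to 4.01). Other pairs were set against each other too. Cd160 stood at 0.175, 0.159 and 0.146 times Btla in Young, Old and Old + Fumarate, with overlapping intervals. Lag3 was at 1.03, 1.74 and 1.06 times Cd4 in the same order. Pdcd1 was at 5.82, 3.45 and 4.32 times Pdcd1lg2, and Havcr2 at 0.021, 0.213 and 0.357 times Lgals9.

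**Figure D4:**
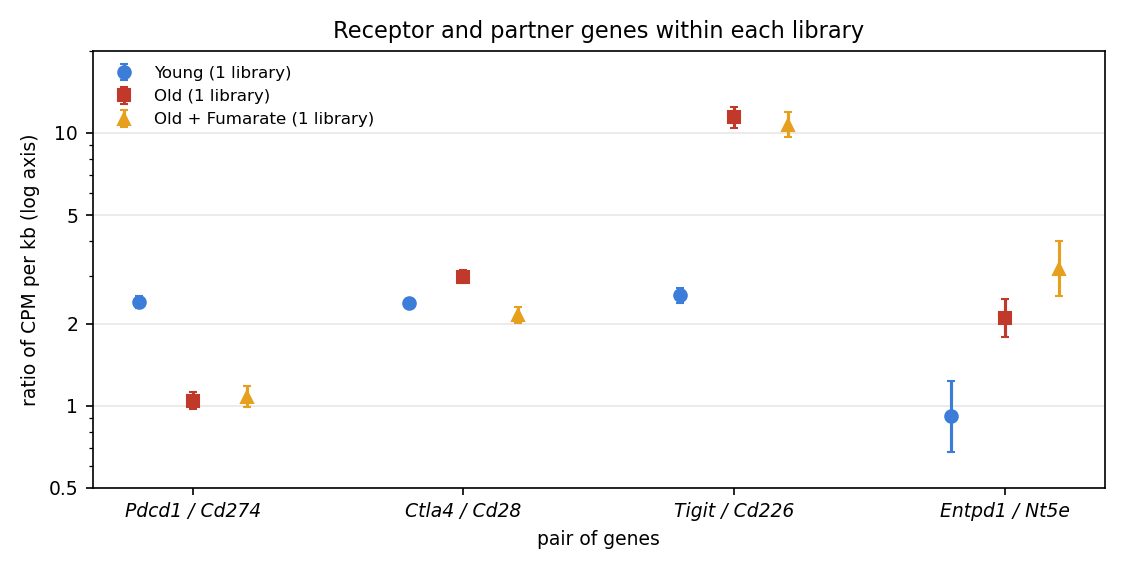
Ratio of CPM per kb of 4 pairs of genes within each library on a log axis, with 95% counting intervals and 1 library per group. The ratio of Tigit to Cd226 was 2.54 in Young against 11.4 and 10.7 in the libraries of aged mice, and that of Pdcd1 to Cd274 was 2.40 against 1.04 and 1.08.

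The adenosine pathway, in which CD39 acts, had 4 of 9 listed genes at least 1.5-fold higher and 1 lower in Old over Young (median 0.36), and 1 higher and 1 lower in Old + Fumarate over Old (median −0.03, or 0.02 with TMM, 0.03 with upper-quartile and 0.00889 with median-of-ratios scaling). Among all genes tested, 16.5% were higher and 6.73% lower in Old over Young, and 2.15% and 11.2% in Old + Fumarate over Old. Nt5e, which encodes CD73, the enzyme that makes adenosine from AMP, was at 3.00, 15.5 and 8.30 CPM in Young, Old and Old + Fumarate. Adora2b, an adenosine receptor gene, was at 6.29, 18.1 and 13.2 CPM, and Adora2a, the main adenosine receptor of T cells, at 70.3, 90.4 and 96.0 CPM. Dpp4, which encodes the surface protein CD26 that binds adenosine deaminase, was at 51.0, 16.8 and 26.1 CPM, lowest in Old.

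Signalling molecules behind the receptors also went both ways. Of the 17 present in the table, 3 were at least 1.5-fold higher and 3 lower in Old over Young (median −0.05), and none higher and 3 lower in Old + Fumarate over Old (median 0.07). Of all genes tested, 16.5% were higher and 6.73% lower by that much in Old over Young. In Old + Fumarate over Old these shares were 2.15% and 11.2%. Ptpn6, the phosphatase SHP-1, was at 348, 269 and 261 CPM in Young, Old and Old + Fumarate, and Inpp5d, the lipid phosphatase SHIP-1, at 79.0, 108 and 89.6 CPM. Ptpn11, the phosphatase SHP-2 that binds PD-1, was at 127, 229 and 134 CPM, highest in Old. Dok2, an adaptor that restrains receptor signalling, was at 39.5, 116 and 66.8 CPM, and Sh2d1a, the adaptor SAP, at 57.9, 25.9 and 29.8 CPM. Of 12 activating counterparts, none was at least 1.5-fold higher and 4 were lower in Old over Young (median −0.26, or 0.04 on the scale of the T cell markers), while in Old + Fumarate over Old none was higher and 1 lower (median 0.07). Tnfrsf4, the costimulatory receptor OX40, was at 350.1, 146 and 156 CPM, Cd28 at 179, 152 and 125 CPM and Icos, a costimulatory receptor of the CD28 family, at 252, 204 and 210 CPM. That scaling raises the ratios of Old over Young by about the same amount for all but the lowest genes: the median over all genes moved from 0.03 to 0.32, and the medians of the signalling list turned to 0.26 in Old over Young and to −0.11 in Old + Fumarate over Old, and that of the activating list to −0.12 in the latter.

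Genes of the interferon gamma pathway, a known inducer of Cd274, are given beside it. Ifng was at 247, 2012 and 2268 CPM in Young, Old and Old + Fumarate, and Irf1, a factor induced by it, at 176, 169 and 85.6 CPM. Past 1.5-fold, the 10 listed genes held 2 higher and 0 lower in Old over Young (median 0.06, or −0.04 with upper-quartile scaling), and 1 higher and 3 lower in Old + Fumarate over Old (median −0.12). Over all genes tested, the shares higher and lower were 16.5% and 6.73% in Old over Young. They were 2.15% and 11.2% in Old + Fumarate over Old. Cd274 and Ifng were both lowest in Young, whereas Irf1 was lowest in Old + Fumarate, as Ctla4 and Lag3 were.

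**Figure D5:**
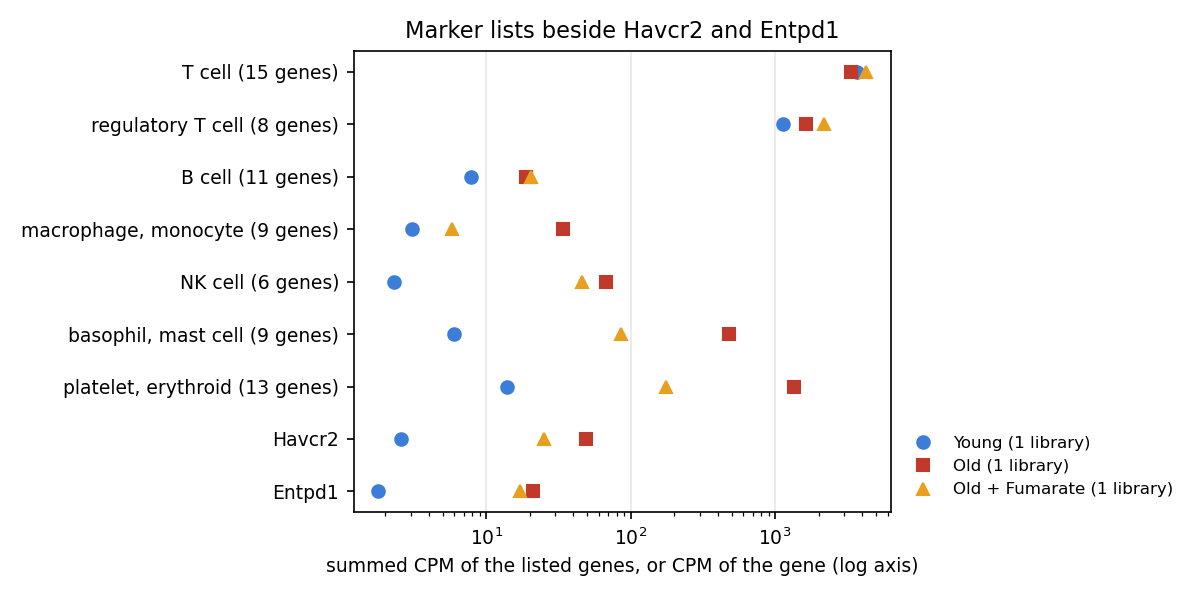
Summed CPM of marker lists, with the number of genes in the table, and CPM of Havcr2 and Entpd1, on a log axis in 1 library per group. Basophil and mast cell markers summed to 5.95, 479 and 85.6 CPM and platelet and erythroid markers to 14.0, 1351 and 175 CPM in Young, Old and Old + Fumarate, highest in Old as Havcr2 (49.2 CPM) and Entpd1 (21.0 CPM) were.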

How the data were processed

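Polyadenylated RNA of 3 libraries was sequenced, from 500 ng of total RNA each, per the labels' protocols. The submitters' processing notes name STAR, Partek and mm10; their versions, the annotation release and the strand setting were not given in the sources used here. CPM values were deposited by the authors: each column sums to 1000000, although the table is named for raw counts.

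The worth of 1 read was estimated from the step between low CPM values, which gave the depths. Within 0.02 reads, 57.3% to 67.6% of the genes above 0 in a library were whole, so the reads were not taken as recovered and count models were not used. Counting intervals (exact Poisson for a level, Clopper-Pearson for a ratio) used rounded estimated reads, which are not independent molecules. A value of 0 allows 3 reads. Ratios are log2 of CPM + 1, with a limit of 1.5-fold and a minimum mean of 1 CPM, and were tested on simulated reads. Table positions, with the end moved back by 1 base, were those of GENCODE M21 for all 10 members, and its merged exons gave lengths. Exons of Cd160 and Cd274 share 68 and 511 bases with a gene on the other strand, and neither of those 2 genes is in the table.

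The members, the 21 other gene lists and the tests were chosen with earlier results of these data known. Named are the members, fixed partners, at most 4 genes per list with the largest ratio, and listed genes nearest to a member, of which 1 is not reported here; Batf3, Kdr, Csf1r and Pecam1 and the pairs of genes set against each other were chosen after their values were seen. Alternatives were other scalings (TMM, median of ratios, upper quartile, T cell markers, other totals), constants, minimums and a 2-fold limit. Tools were scipy 1.17.1, pandas 2.3.3, numpy 2.4.6 and matplotlib 3.10.9 in Python 3.11.15.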

Additional observations from a re-analysis of the deposited data

How the results depend on the processing

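With a limit of 2-fold, the count of members lower in Old + Fumarate over Old went from 3 to 0 and that in Old + Fumarate over Young from 1 to 0, the latter also 0 with scaling to the T cell markers. The other 57 counts of members over settings stayed within 1.5 times the value reported or equal to it, and no member past 1.5-fold changed direction under any setting run. The changed minimums could not alter these counts, since the lowest mean of a member was 13.2 CPM (Cd160). Scaling to the T cell markers moved the median of the members to 0.52, −0.45 and −0.18 in Old over Young, Old + Fumarate over Old and Old + Fumarate over Young, and the share of genes past 1.5-fold that were higher from 71.1% to 90.5% in Old over Young and from 60.7% to 72.4% in Old + Fumarate over Young. With an added constant of 5 CPM, the log2 ratios of Havcr2 and Entpd1 in Old over Young were 2.84 and 1.94. No paired analysis was possible because each group has 1 library, and for the same reason no library could be left out of a comparison. Depth limits Entpd1 and Havcr2 in Young most, with 73 and 105 estimated reads.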

Other observations

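Other inhibitory receptors of the same kind were also spread. Of 11 listed genes with a mean of at least 1 CPM, 5 were at least 1.5-fold higher and 2 lower in Old over Young (median log2 ratio 0.27), and 2 higher and 3 lower in Old + Fumarate over Old (median −0.17). Over all genes tested, 16.5% were higher and 6.73% lower in Old over Young, and 2.15% and 11.2% in Old + Fumarate over Old. Cd300a, an inhibitory receptor of myeloid and mast cells, was at 0.122, 40.8 and 6.71 CPM in Young, Old and Old + Fumarate. Lilrb4a, a receptor of myeloid cells and of activated T cells, was at 11.7, 229 and 164 CPM, but it has a near-identical copy and its level is uncertain. Lair1, a collagen receptor, was at 0.683, 7.24 and 2.60 CPM and Cd244a, a receptor of NK and killer T cells, at 0.781, 7.01 and 3.90 CPM. All 4 were lowest in Young and highest in Old, as the summed basophil and mast cell markers were, and the part of those cells was not tested.

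Of 18 transcription factors that act on these receptors, 7 were at least 1.5-fold higher and 6 lower in Old over Young (median −0.12), and 3 higher and 2 lower in Old + Fumarate over Old (median 0.04). Scaling to the T cell markers turned these medians to 0.18 and −0.14. Beside these counts, 16.5% of all genes tested were higher and 6.73% lower in Old over Young. In Old + Fumarate over Old, 2.15% were higher and 11.2% lower. Prdm1, which encodes Blimp-1, was at 2.46, 23.9 and 17.5 CPM, Maf at 2.12, 31.5 and 9.74 CPM, Nr4a3 at 517, 101 and 156 CPM, Id3 at 23.4, 5.44 and 5.49 CPM and Tox, a factor of exhausted T cells, at 23.3, 9.62 and 6.57 CPM. Of 12 genes of receptor traffic and shedding, 1 was at least 1.5-fold higher and 1 lower in Old over Young (median 0.14). By the same limit, 16.5% and 6.73% of all genes tested were higher and lower. None of the 12 was higher and 2 were lower in Old + Fumarate over Old (median −0.08), where 2.15% and 11.2% of all genes were. The largest ratio was that of Fut8, the enzyme of core fucosylation, at 21.0, 118 and 24.0 CPM.

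Over the 3 libraries, and among 144 listed genes with a mean of at least 5 CPM, the nearest gene by distance in centred log2 of CPM + 1 was Icos for Btla (0.0231). Adam10, which encodes a protease that sheds LAG-3, was nearest to Lag3 (0.102), Prdm1 to Entpd1 (0.204) and Fcer1g, a signalling chain of mast, myeloid and NK cells, to Havcr2 (0.532). Further nearest genes were Adora2b for Tigit (0.122), Slc29a2 for Cd274 (0.127), Cd27 for Pdcd1 (0.0657), Cd28 for Cd200 (0.0675) and Ptpn6 for Cd160 (0.0336). With 3 points per gene such distances only describe these libraries.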
